A study of Homo sapiens with 15 samples.

Results

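G-quadruplex motifs were taken as 4 runs of 3 or more G split by loops of 1 to 7 bases of any kind, and were searched without overlap on each strand of chromosomes 1 to 22 and X of hg19. The search found 379597 motifs, of which 190284 had their G runs on the plus strand and 189313 on the minus strand. A motif had a median length of 23 bases, with a range from 15 to 139. The motifs held 290342 distinct sequences, 71.5% of the motifs had a sequence found nowhere else among them, and 15.1% shared their sequence with at least 9 others. The 3′-OH ends in and around these motifs were counted in 15 libraries of SSiNGLe-P1, a method in which nuclease P1, an enzyme that cuts single-stranded DNA, is used on crosslinked nuclei and the 3′-OH termini are then tailed, copied and sequenced. K562, an established human chronic myeloid leukemia cell line, was the only cell source, labelled WT. Its nuclei received no P1 (untreated) or 0.01, 0.1, 1 or 10 U of P1, with 3 biological replicates per amount.

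A G-quadruplex is a stack of planar squares of 4 guanines that a single G-rich strand can fold into. The motifs are common in promoters and telomeres and are studied as obstacles to polymerases and as sites where the complementary C-rich strand may be left unpaired. A sequence match states only that a strand could fold. Folding was not measured in these libraries.

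A site below is a genomic position and strand with at least 1 terminus. The nuclear data held from 2046116 to 3859475 sites per library on the chromosomes used, and between 7.11% and 7.98% of them lay inside a motif or within 200 bases. CDKN2A, a cell cycle inhibitor gene that K562 is known to have lost, held 1 site over all 15 libraries, against a median of 90 per 10000 bases on chromosome 9. The strand had to be settled first. The read that reports a terminus is a copy of the DNA end, and the strand in the files is that of the read. In the 3 untreated mitochondrial libraries the 3′ end of 7S DNA, a short extra strand of the control region that has the sequence of the minus strand of the reference, peaked at position 16107 and was listed on plus, with 72247 to 330821 termini on plus and 363 to 1223 on minus in the 300 bases around it. The G strand and the C strand below are therefore the DNA strands that bear the 3′-OH end, and a G-strand end is listed in the files on the opposite strand. This reading rests on the library design, the T filter and 7S DNA, and under the other reading all G-strand and C-strand values would be exchanged.

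The sequences of some members show what the rule selects, with the G runs in capitals and the loops in lower case, read 5′ to 3′ on the G strand. The first 3 are the motif sequences with the most copies in the genome, and the next 3 are motifs near annotated gene starts (hg19) described below.
6569 copies: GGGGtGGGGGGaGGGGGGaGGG
6104 copies: GGGaGGGaGGGaGGG
3489 copies: GGGaGGGaggtGGGgGGG
KIT, chr4:55524052-55524073, plus strand: GGGaGGGcgctGGGaggaGGGG
VEGFA, chr6:43742031-43742051, minus strand: GGGcatGGGcaGGGGctGGGG
PDGFRB, chr5:149535510-149535536, plus strand: GGGagaaGGGGGGGcggcGGGGcaGGG

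Inside the motifs, ends on the G strand rose with 1 U and 10 U of P1, whereas ends on the C strand were above the level of windows of the same GC content at every amount. The values are ratios of the sites observed to the sites expected from GC-matched windows of the same library, that is from positions over 200 bases from any motif, grouped by the G+C content of 50 bases on each side. Positions that the T-rich filter of the authors would have removed were left out on both sides of the ratio. On the G strand the ratios of the 3 untreated libraries were 1.16, 0.970 and 0.933. At 0.01 U they were 0.993, 1.03 and 0.932, and at 0.1 U they were 0.930, 0.987 and 1.02. These 9 libraries lay on both sides of 1, and untreated replicate 1, the deepest library, was the highest of them. At 1 U the ratios were 1.202, 1.24 and 1.25, and at 10 U they were 1.49, 1.49 and 1.63. All 6 libraries of these amounts were above the other 9.

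On the C strand the untreated ratios were 1.46, 1.26 and 1.27, and the ratios at 0.01 U were 1.31, 1.30 and 1.28. At 0.1 U they were 1.25, 1.27 and 1.32. The 1 U libraries gave 1.37, 1.55 and 1.32, of which replicate 2 was the highest of all 15, and the 10 U libraries gave 1.24, 1.27 and 1.22. The libraries of 1 U were above those of 0.01, 0.1 and 10 U and overlapped with the untreated ones, and those of 10 U were below those of 0.01 U.

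Over the 15 libraries the ratio to GC-matched windows was 1.13 on the G strand (higher than 1 in 9 of 15, adjusted p = 0.0358) and 1.31 on the C strand (15 of 15, adjusted p = 0.000153), by exact two-sided sign-flip permutation tests adjusted over the 25 tests made (Benjamini-Hochberg). The G-strand call was lost without any one replicate number (1.13 each time) and with all positions kept (1.11). The density of sites on the G strand divided by that on the C strand was 0.769 ± 0.029 (SD, n = 3) in the untreated libraries, 0.876 ± 0.071 at 1 U and 1.24 ± 0.081 at 10 U. The 3 libraries of 10 U were the only ones of the 15 above 1. The spread of this quotient over the 5 amounts passed the exact permutation test within replicate numbers (highest over lowest amount 1.62, adjusted p = 0.00579), as did that of the G-strand ratio (1.57, adjusted p = 0.00601). The spread of the C-strand ratio did not pass the same exact test (1.13, adjusted p = 0.236). With all treated libraries pooled against the untreated ones, there was no call by the exact permutation test within replicate numbers. That test moves the untreated label among the amounts, so differences between the amounts are part of the spread it compares with. It pools 0.01 and 0.1 U with 1 and 10 U and cannot weigh the changes at the latter against the spread between libraries. By this exact test the factor was 1.14 on the G strand (higher in 9 of 12, adjusted p = 0.348) and 0.984 on the C strand (7 of 12, adjusted p = 0.776). The plot of inside ratios by amount shows the individual libraries.

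**Figure D1:**
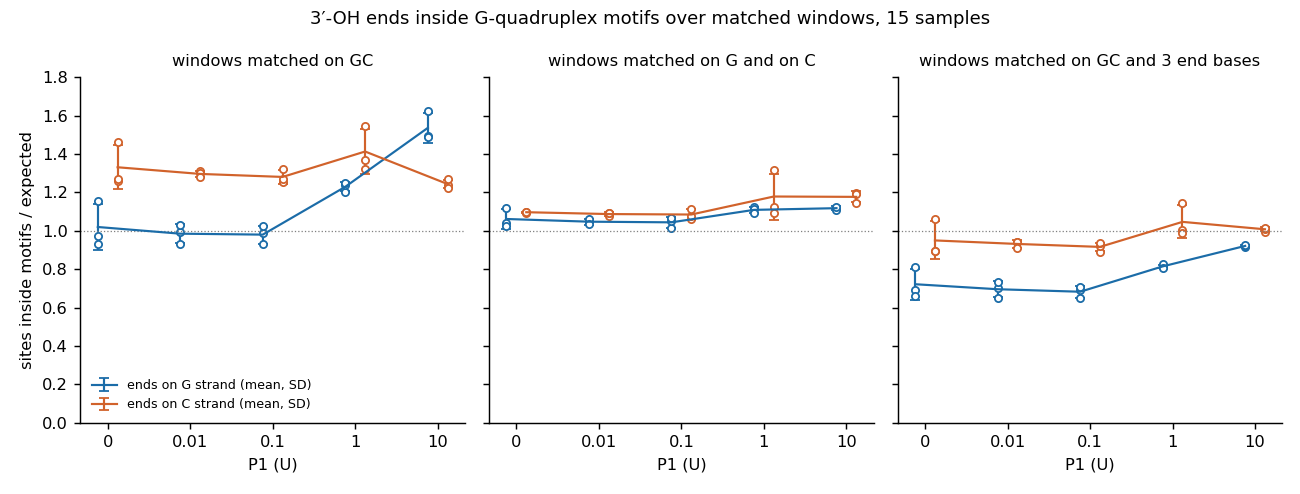
Sites inside G-quadruplex motifs over those expected (y axis, no unit) by P1 amount in U (x axis) for ends on the G and the C strand. Open circles are the 15 libraries, lines and bars the mean and SD of 3 replicates, and the panels differ in how windows were matched: on GC, on G and C separately, or on GC and 3 bases around the end. The G-strand rise to 1.54 at 10 U in the first panel is 1.12 in the second.

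The comparison with GC-matched windows does not take account of which of the strands holds the G. Windows were therefore also matched on the numbers of G and of C on the strand of the end, within 25 bases on each side. The G-strand ratio was then 1.06 ± 0.051 (SD, n = 3) without P1 and 1.12 ± 0.0096 at 10 U, and the C-strand ratio was 1.10 ± 0.0018 and 1.18 ± 0.029. The quotient of the strands was 0.968 ± 0.048 and 0.95 ± 0.027. In this setting the G-strand spread over the amounts no longer passed the exact permutation test (1.07, adjusted p = 0.0698), nor did that of the quotient (1.02, adjusted p = 0.968). G-rich stretches that hold no motif also had more sites at 10 U. Among windows away from motifs, those with at least 25 G and under 13 C in 51 bases of the strand of the end had 1.66 ± 0.22 times the density of all windows without P1 (SD, n = 3), 1.89 ± 0.075 times at 1 U and 2.55 ± 0.072 times at 10 U. Windows with at least 25 C and under 13 G on that strand had 2.18 ± 0.31, 2.03 ± 0.018 and 1.88 ± 0.13 times. In the G-rich windows the 3 libraries of 10 U were above all untreated libraries, and those of 1 U overlapped with them.

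The bases at the end itself also differed from the genome. Away from motifs the last base of an end was C in 46.1% ± 1.1 and G in 30.8% ± 0.74 of untreated sites (SD, n = 3), where C and G made up 21.2% and 20.9% of the eligible positions. At 10 U the last base was C in 42.7% ± 0.70 and G in 34.1% ± 0.99. G runs are rich in such bases on both strands. With windows matched on GC and on 3 bases (the last 2 of the end and the next one), the inside ratio over the 15 libraries was 0.761 on the G strand (above 1 in 0 of 15, adjusted p = 0.000191, exact sign-flip test) and 0.968 on the C strand (5 of 15, adjusted p = 0.142). The direction of both was thus turned by this matching. The order of the mean ratios on the G strand was kept, from 0.722 ± 0.081 without P1 to 0.814 ± 0.0089 at 1 U and 0.921 ± 0.0036 at 10 U. The libraries of 1 U (0.810, 0.825 and 0.808) overlapped here with untreated replicate 1 (0.813), and those of 10 U were above all others. Whether ends inside motifs are more or less frequent than elsewhere therefore depended on the windows used for comparison.

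Within the motif the sites lay in the G runs rather than in the loops when windows were matched on GC. The 4 runs together had a G-strand ratio of 1.32 ± 0.17 (SD, n = 3) without P1 and 2.06 ± 0.14 at 10 U, and the 3 loops had 0.561 ± 0.048 and 0.746 ± 0.018. On the C strand the runs had 1.68 ± 0.13 and 1.55 ± 0.033, and the loops 0.785 ± 0.096 and 0.763 ± 0.027. The contrast of runs and loops was also present in untreated nuclei, and with G and C matched separately it was 1.38 ± 0.078 against 0.585 ± 0.023 on the G strand there. The runs were not alike at 10 U. From 5′ to 3′ along the G strand their ratios were 2.36 ± 0.16, 2.22 ± 0.16, 1.91 ± 0.15 and 1.66 ± 0.085, whereas the untreated libraries had 1.37 ± 0.36, 1.35 ± 0.22, 1.25 ± 0.12 and 1.33 ± 0.055. At 1 U they had 1.801 ± 0.085, 1.72 ± 0.052, 1.51 ± 0.039 and 1.46 ± 0.017. Under GC matching the ratio thus fell from the first run to the last at 1 U and 10 U, which was not tested. With G and C matched separately it also fell at 10 U, with 1.71 ± 0.045, 1.57 ± 0.049, 1.36 ± 0.041 and 1.25 ± 0.0061. The untreated libraries then had 1.41 ± 0.28, 1.38 ± 0.13, 1.30 ± 0.045 and 1.42 ± 0.14. The last run was not higher at 10 U under the other matchings, with 1.25 ± 0.0061 against 1.42 ± 0.14 without P1 when G and C were matched separately, and 0.755 ± 0.0076 against 0.753 ± 0.041 when the end bases were matched. With the bases at the end matched, the difference between runs and loops on the G strand was small, with 0.725 ± 0.084 for runs and 0.710 ± 0.071 for loops in untreated libraries, and 0.914 ± 0.0094 and 0.954 ± 0.023 at 10 U. On the C strand the order turned, with 0.914 ± 0.087 for runs and 1.09 ± 0.15 for loops in untreated libraries, and 0.973 ± 0.018 and 1.14 ± 0.018 at 10 U.

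**Figure D2:**
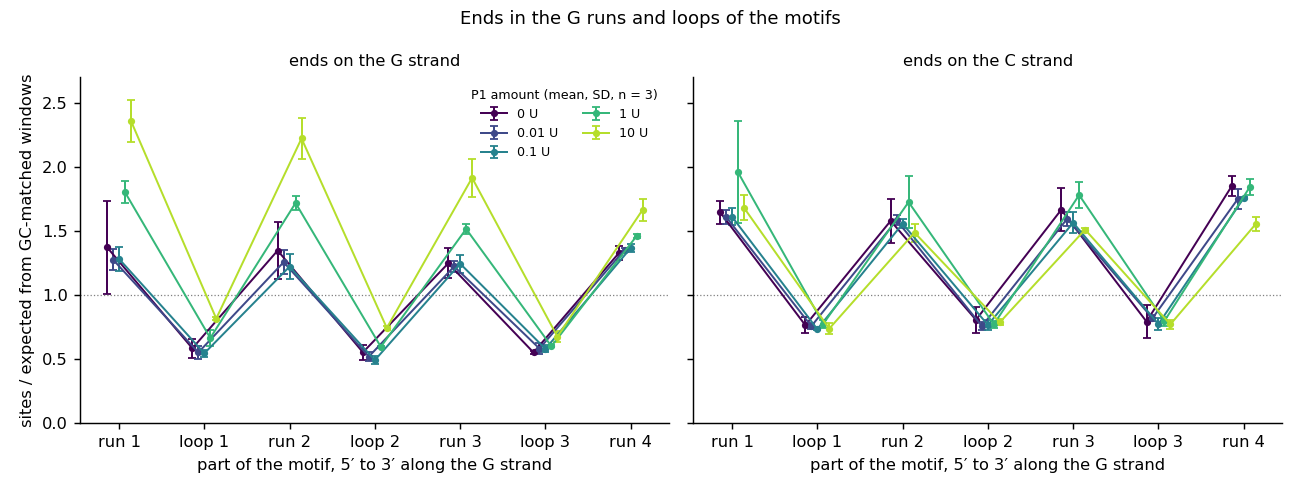
Sites in each G run and loop of the motifs over those expected from GC-matched windows (y axis), from the 5′ to the 3′ end of the motif along the G strand (x axis), for ends on the G strand (left) and the C strand (right). Points and bars are the mean and SD of 3 libraries per P1 amount. Runs lie above loops at each amount, and at 10 U the G-strand ratio falls from 2.36 in the first run to 1.66 in the last.

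Next to the motifs the strands differed in the same direction in each library. Within 200 bases, outside any motif, the G-strand ratio to GC-matched windows was 1.16 (range 1.08 to 1.24, above 1 in 15 of 15, adjusted p = 0.000153), and the C-strand ratio was 0.962 (0.923 to 0.993, 0 of 15, adjusted p = 0.000153), by exact sign-flip tests. The quotient of G-strand over C-strand density was 1.25 (1.14 to 1.35, 15 of 15, adjusted p = 0.000153, exact sign-flip test). The untreated libraries alone had 1.1996 ± 0.048 (SD, n = 3), and those of 10 U had 1.32 ± 0.025. The G-strand flank ratio stayed above 1 with windows matched on G and C separately (1.17 ± 0.032 without P1 and 1.22 ± 0.026 at 10 U) and on the bases of the end (1.16 ± 0.033 and 1.21 ± 0.027). The C-strand mean per amount lay between 0.940 (10 U) and 0.987 (1 U) under GC matching. The C-strand ratio did not keep its side of 1 under all settings, and it pools bases above and below 1, as the profile below shows.

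A profile out to 1000 bases showed where the G-strand excess lay. Its windows were chosen after the profile was seen and were not tested. On the 3′ side of the motif, along the G strand, the G-strand ratio over the 15 libraries was 0.802 ± 0.045 (SD, n = 15) in the first 20 bases, 1.505 ± 0.094 beyond 100 and up to 200 bases, 1.41 ± 0.078 in the next 100 bases and 1.25 ± 0.054 in the 100 after those. Beyond 500 and up to 1000 bases it was 1.10 ± 0.015. At that distance the C strand had 1.09 ± 0.0092 on the 3′ side. On the 5′ side the G strand had 1.10 ± 0.014 and the C strand 1.10 ± 0.011. Each of these was above 1 in 15 of 15 libraries, so the wider surroundings lay above GC-matched windows on both strands. The G-strand ratio on the 3′ side thus rose from a low next to the motif to a peak and fell back. The low was not particular to it. In the first 20 bases the mean was 0.911 on the C strand of the 3′ side. On the 5′ side it was 0.833 on the G strand and 0.767 on the C strand. On the 5′ side the G-strand ratio was 1.15 ± 0.027 beyond 100 and up to 200 bases and 1.16 ± 0.033 in the next 100. The C strand had 1.18 ± 0.026 on the 3′ side and 0.911 ± 0.044 on the 5′ side beyond 100 and up to 200 bases, and 0.801 ± 0.020 in the first 100 bases of the 5′ side, below 1 in all 15 libraries.

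The 3′ peak was seen in each library. In 20-base bins the highest G-strand value was at 121 to 160 bases in the untreated, 0.01 U and 0.1 U libraries and between 141 and 200 bases at 1 U and 10 U, with heights from 1.39 to 1.83. Untreated replicate 1 had the lowest of these heights and replicate 2 of 1 U the highest. Beyond 100 and up to 400 bases the 3′ G-strand ratio was 1.25, 1.35 and 1.39 in the untreated libraries. It was 1.36, 1.53 and 1.44 at 1 U, and 1.38, 1.46 and 1.49 at 10 U, so that the amounts overlapped. Divided by the C-strand ratio of the same bases it had a median of 1.2003 (1.09 to 1.32, above 1 in 15 of 15), and divided by the G-strand ratio of the 5′ side a median of 1.21 (1.11 to 1.31, 15 of 15). The height differed with the copies of the motif. Motifs whose sequence has under 10 copies had 1.52 ± 0.092 beyond 100 and up to 200 bases (SD, n = 15), those with 10 or more copies 1.27 ± 0.13, and windows matched on GC and end bases gave 1.51 ± 0.093 for all motifs. In the library each strand is copied from its 3′ end towards its 5′ side, so copies of G-strand ends on the 3′ side of a motif run towards the G runs. The part of this geometry and of fragment length in the profile was not tested.

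**Figure D3:**
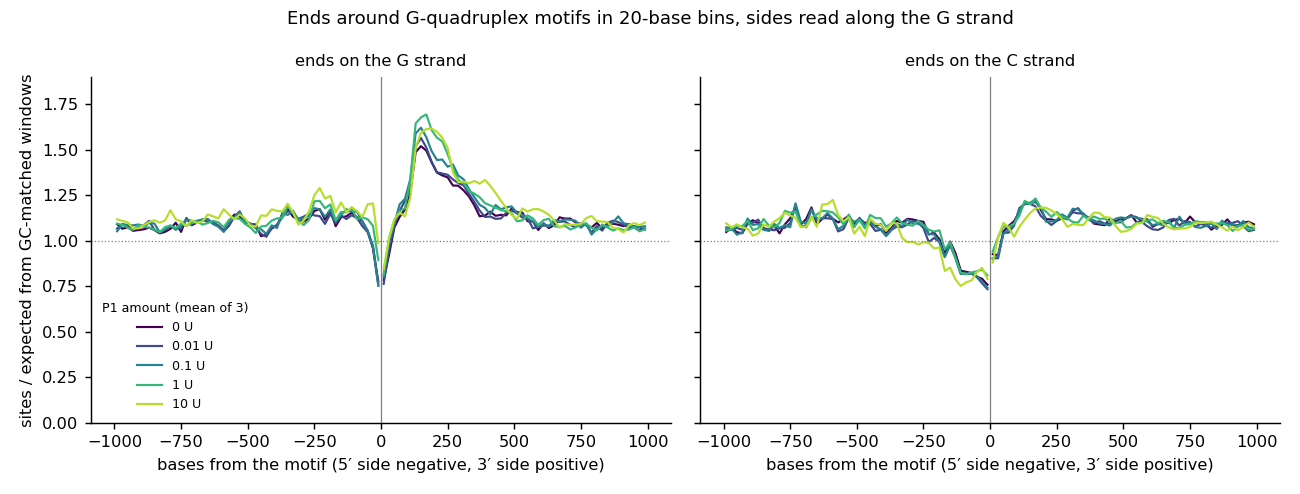
Sites over those expected from GC-matched windows (y axis) in 20-base bins out to 1000 bases from the nearest motif (x axis, 3′ side of the G strand positive), for ends on the G strand (left) and on the C strand (right). Lines are means of 3 libraries per P1 amount. At every amount the G-strand curve has a peak beyond 100 and up to 200 bases on the 3′ side, where the mean over the 15 libraries is 1.505, and the C-strand curve is low on the 5′ side.

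Several classes of motifs had fewer sites inside, relative to those expected, than their counterparts. Motifs with another motif within 200 bases (117325 tandem motifs) had 0.745 times the G-strand ratio and 0.760 times the C-strand ratio of the 177758 motifs with none within 1000 bases, lower in 15 of 15 libraries on each strand (adjusted p = 0.000153 each, exact sign-flip tests). With G and C matched separately the G-strand gap was smaller. Tandem motifs then had 0.896 ± 0.045 against 1.09 ± 0.077 for those with none without P1 (SD, n = 3). At 10 U they had 0.989 ± 0.030 against 1.07 ± 0.041. Motifs with loops of up to 3 bases (101566), which form the more stable quadruplexes in vitro, had 0.824 times the G-strand ratio of the 215836 motifs with a loop of 5 bases or more (15 of 15 lower, adjusted p = 0.000153) and 0.818 times the C-strand ratio (14 of 15 lower, adjusted p = 0.000694, exact sign-flip tests). The C-strand quotient was 1.00 among motifs whose sequence has under 10 copies. Motifs with a run of 4 or more G (309255) had 0.906 times the G-strand ratio of the 70342 motifs with runs of exactly 3 (15 of 15 lower, adjusted p = 0.000153), and on the C strand the quotient was 0.986 (adjusted p = 0.582, exact sign-flip test).

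Gene context made smaller differences. The 52656 motifs within 1000 bases of a start site of a protein-coding gene had 0.915 times the G-strand ratio of the other motifs (15 of 15 lower, adjusted p = 0.000153, exact sign-flip test), and 1.01 times with the end bases matched. On the C strand the quotient was 0.967 (9 of 15 lower, adjusted p = 0.0839, exact sign-flip test). Inside genes, motifs with the G runs on the non-template strand (99988) were compared with those with the G runs on the template strand (101094). The C-strand ratio was higher for the former by 1.10 times (15 of 15, adjusted p = 0.000153, exact sign-flip tests), and the G-strand ratio differed by less than the spread between libraries (1.01 times, 11 of 15 higher, adjusted p = 0.348). For a motif on the non-template strand, a C-strand end is an end on the transcribed strand.

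**Figure D4:**
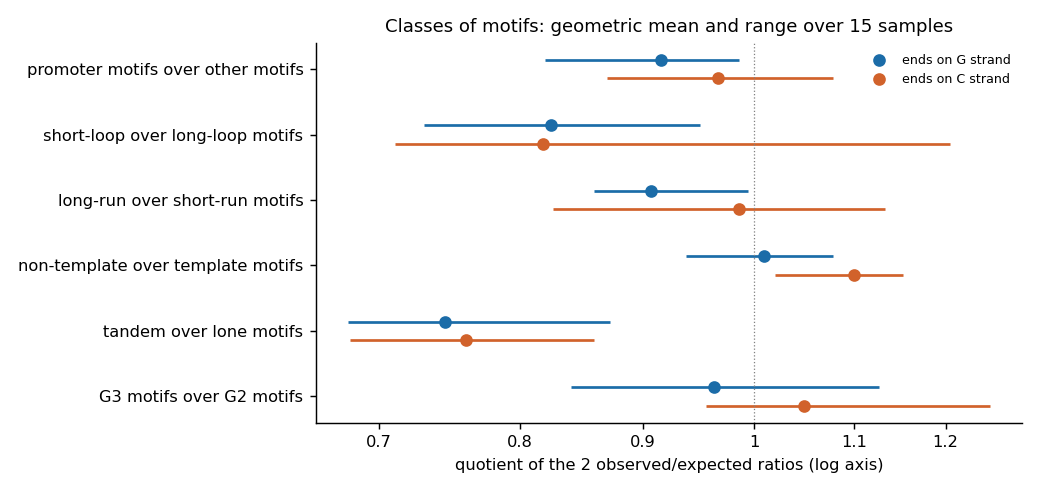
Quotient of the inside ratios of a class of motifs and its counterpart (x axis, log scale) for ends on the G and the C strand, for the 6 pairs of classes (y axis). Dots are geometric means and lines the range over 15 libraries. The tandem motifs have the lowest quotients, 0.745 and 0.760.

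Motifs with 4 runs of exactly 2 G, which can fold into weaker stacks of 2 planes, served as a comparison. There were 2739720 of them, and only those over 200 bases from the motifs above were used. In untreated libraries their G-strand ratio was 1.11 ± 0.021 (SD, n = 3). With 1 U it was 1.19 ± 0.021 and with 10 U 1.38 ± 0.059, and on the C strand it was 1.35 ± 0.054, 1.25 ± 0.033 and 1.06 ± 0.020. The motifs with longer runs had 0.963 times the G-strand ratio (7 of 15 higher, adjusted p = 0.228) and 1.05 times the C-strand ratio (8 of 15 higher, adjusted p = 0.0856), by exact sign-flip tests over 15 libraries. These averages pool amounts that differed. At the longer runs the G-strand ratio was 1.02 ± 0.12 without P1 and 1.54 ± 0.078 at 10 U, and the C-strand ratio 1.33 ± 0.11 and 1.24 ± 0.023. The rise on the G strand at 10 U was hence also found at the shorter runs, from a higher start to a lower end. This difference between the classes was not tested.

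The authors called regions enriched over the untreated library of the same replicate number and deposited the sites in them as clustered P1 cut sites. Of these, from 9.42% to 15.2% lay inside a motif or within 200 bases. The ratio to GC-matched windows was 1.19, 1.25 and 1.13 at 0.01 U, 1.24, 1.25 and 1.32 at 0.1 U, 1.34, 1.74 and 1.35 at 1 U and 1.16, 1.17 and 1.11 at 10 U. The 3 libraries of 1 U were the highest and 10 U had the lowest mean. The spread over the 4 amounts passed the exact permutation test within replicate numbers (highest over lowest amount 1.28, adjusted p = 0.0062). Replicate 2 of 1 U had the highest value, and without replicate number 2 the factor was 1.19 (adjusted p = 0.0801, exact permutation test). The call was lost without any single replicate number. With fewer libraries the fewer arrangements limit how small p can be, so this loss cannot be laid to replicate 2. On the G strand the ratio was 1.30 ± 0.12 at 0.01 U (SD, n = 3), 1.62 ± 0.17 at 1 U and 1.38 ± 0.016 at 10 U. The C strand was lower at each of these amounts, with 1.08 ± 0.034, 1.34 ± 0.29 and 0.924 ± 0.079.

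Single motifs were sparsely covered. The motif zones (a motif with 200 bases on each side, overlapping zones merged) numbered 277040 and held a median of 8 sites summed over the 15 libraries, and 4.87% of them held none. Each of 11 genes known for quadruplexes in their promoters had a motif within 1000 bases of an annotated start site, and their zones held from 0 to 23 sites. The motif taken was the nearest to any annotated start of the gene, and need not be the quadruplex known for its promoter. That of RB1, for example, lies in an intron 520 bases downstream of a start, and that of PDGFA in a coding exon. The motif of VEGFA, a growth factor of blood vessels, lies in an exon 39 bases upstream of the nearest annotated start site and had the most, 12 on the G strand and 11 on the C strand. The zone of PDGFRB, a receptor of platelet-derived growth factor, held 12 and 6, with its motif upstream of the start site and outside genes. Those of KIT, a receptor tyrosine kinase whose motif overlaps the start site and lies in the UTR, held 1 and 7.

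The other 8 zones of these genes had fewer than 10 sites. MYB, a transcription factor, had 1 on the G strand and 8 on the C strand. RB1, a brake on the cell cycle, had 4 and 4, HIF1A, a hypoxia factor, 4 and 3, and PDGFA, a ligand of PDGF receptors, 3 and 4. BCL2, an inhibitor of apoptosis, and RET, a receptor tyrosine kinase, had 2 G-strand sites each, and TERT, the catalytic subunit of telomerase, had 2 C-strand sites. HRAS, a small GTPase, had no site, which allows up to 3 over the 15 libraries. Inside the motifs themselves 4 sites were found, in VEGFA, PDGFRB and RB1. Strand and P1 effects were not tested for single promoters, and the limit for a count of 0 covers counting error only.

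The repeated sequences were the opposite case. The sequence with 6569 copies was spread over all 23 chromosomes and held 727 G-strand sites, 0.404 times those expected, and 535 C-strand sites, 0.270 times. The sequence with 6104 copies had ratios of 0.829 and 0.857, and that with 3489 copies had 0.327 and 0.116. Motifs whose sequence has 10 or more copies were below the others inside, with 0.606 ± 0.15 against 1.07 ± 0.12 on the G strand without P1 (SD, n = 3) and 1.14 ± 0.086 against 1.58 ± 0.081 at 10 U. Only uniquely mapped read pairs entered the files, and the part of mapping in this difference was not tested.

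Among the zones with the most sites, that in an intron of LINC00486 on chromosome 2 held 7 motifs in 943 bases and 434 sites. It was set by 1 library, replicate 2 of 1 U, with 190 sites against 4 to 36 in the other 14. The zone at FIBCD1 on chromosome 9 also held 434 sites, from 18 to 61 per library, in 1500 bases. That in an intron of PPM1F on chromosome 22 held 375 in 1035 bases, and that at PSMD14-DT on chromosome 2 held 370 in 429 bases. Per 1000 bases these were 289, 362 and 862 sites. The zones were ranked by sites, with no correction for length or for DNA copies in K562. The part of either in these counts was not tested. In these 3 zones the sites were spread over many positions, with 1 position or none shared by 10 or more libraries.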

How the data were processed

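SSiNGLe-P1 libraries of K562 nuclei were grouped by P1 amount and replicate number from their titles. The authors tailed 3′-OH ends with polyA, copied them with an oligo(T) primer, aligned read pairs to hg19 with BWA-MEM (BWA 0.7.12, per the labels), kept uniquely mapped pairs and removed termini with T-rich upstream bases. The deposited tables hold the count of termini per position and strand. Rows, not counts, were used, since no molecular identifiers are named. SICER 1.1 gave the clustered sites, which the authors deposited as counts of 1. The deposited region lists, with fold, p-value and FDR columns, were not used.

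The filter was rebuilt from the genome. No site of chromosomes 1 to 22 and X had more than 7 T in 20 upstream bases of the listed strand, on minus starting 1 base farther away, whereas 15.1% to 17.5% of sites of chromosome 20 had more on the other strand. The design had assumed 8. Eligible positions were those that the filter keeps, 92.3% inside motifs on the G strand, 97.8% on the C strand and 73.3% of the GC-matched windows.

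Expected sites were the summed densities of the windows of equal GC content, leaving out strata under 1000 positions. Ratios were tested on the log2 scale over libraries with exact two-sided sign-flip tests (smallest p 6.1e-05) and exact permutations within replicate numbers (125 arrangements for treated against untreated, 14400 for 5 amounts, 576 for 4), adjusted over 25 tests and called at 0.05. The permutations kept the replicate number as a block because the methods compare each treated library with the untreated one of its number. The sign-flip tests had no such block and took all libraries as independent of each other. Means over libraries in tests are geometric. Counting and tests were tested on simulated data. Python 3.11.15, numpy 2.4.6, pandas 2.3.3, numba 0.67.0 and GENCODE 44 mapped to hg19 were used. Named members are motifs nearest to start sites of genes from a list, the zones with the most sites and the sequences with the most copies, and 2 members that this rule named are not reported here. Members, lists and classes were chosen with earlier results of these data known, and the profile windows and 3 further alternatives after the values were seen.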

Additional observations from a re-analysis of the deposited data

How the results depend on the processing

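Of 456 recomputed values, 371 kept their direction and their side of the threshold, 31 changed direction, 31 came past it and 23 lost it. The cause of these changes was not tested. Settings that leave fewer libraries also leave fewer arrangements, which limits how small p can be. Matched on the 3 end bases, the inside ratio was 0.761 (G strand) and 0.968 (C strand), the flank C ratio 1.0054, the treated C factor 1.028, the promoter quotients 1.007 (G) and 1.062 (C), long over short runs 0.896 (C), non-template over template 1.03 (G) and 3-G over 2-G motifs 0.848 (G) and 0.994 (C). With 6 end bases and T matched, chosen after seeing the data, these were 0.721 and 0.864 inside, 1.0033 for promoters (C), 0.858 for runs (C), 1.034 for template (G) and 0.779 and 0.832 for 3-G over 2-G. With G and C matched separately, the spreads over amounts were 1.071 (G) and 1.024 (G over C), the treated factors 1.03 (C) and 0.988 (G over C), promoters 0.955 (C), runs 0.938 (C) and 3-G over 2-G 0.901 and 0.926.

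With GC of 15 bases on each side, inside G was 1.035, flank C 0.996, treated C 1.063, the C spread 1.218 and promoters 0.945 (C). With GC of 200 bases, the clustered spread was 1.223, promoters 0.881 (C), runs 1.0054 (C), template 0.983 (G) and 3-G over 2-G 0.917 (G). Upstream T matched gave treated C 1.0045, promoters 0.948 (C) and template 1.029 (G). All positions gave inside G 1.106, promoters 0.939 (C) and template 1.036 (G). All termini gave promoters 0.960 (C) and template 0.988 (G). Sites with at least 2 termini gave treated C 1.0014, C spread 1.266, runs 0.936 (G) and template 0.954 (G). Windows over 1000 bases from motifs gave flank C 1.0051 and promoters 0.936 (C). Promoters on the C strand were 0.935 within each chromosome and 0.846 with promoters matched. Without recurrent positions, inside G was 1.114, template 1.037 (G) and 3-G over 2-G 1.062 (C), and without outlying 10 kb bins the last was 1.080. Sequences with under 10 copies, chosen after seeing the data, gave flank C 1.018, promoters 0.906 (C), loops 1.0008 (C), runs 0.932 (C), template 0.994 (G) and 3-G over 2-G 1.009 (G) and 1.122 (C). With end bases matched as well, they gave inside G 0.812, flank C 1.061, treated C 1.019, runs 0.879 (C) and 3-G over 2-G 0.905 (G) and 1.069 (C).

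Leaving out each replicate number gave inside G 1.126 to 1.133, G over C 0.859 to 0.872, the spreads 1.557 to 1.635 (G), 1.564 to 1.701 (G over C) and 1.186 to 1.345 (clustered), all no longer called with fewer libraries, treated C 0.946 to 1.038 and template (G) 0.996 to 1.018. Without the replicate block, no call changed (G spread p = 0.00025, G over C 0.000326, clustered 0.0011, permutation tests). Deviations of libraries with the same number correlated with a median r of 0.224 over 30 pairs, 16 of them over 0.1. The median was -0.0617 over 60 other pairs, 15 of them over 0.1. Deviations were taken from the mean of the 3 libraries of an amount. This pulls other pairs down when same-number pairs are alike, so the other pairs are no independent reference. Whether the numbers pair the libraries was not tested. A count without repeats was not made, as the genome used here marks none. Replicates are 3 per amount and single motifs hold too few sites for a comparison.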

Other observations

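The base that follows the end in the genome, which is not part of the end, also varied with P1. Away from motifs it was A in 36.6% of untreated sites and in 41.5% at 1 U and 44.1% at 10 U, where A made up 25.6% of the eligible positions. It was C in 24.4%, 19.5% and 16.9% (means of 3 libraries). No values were set aside for a closer look, since groups of 3 libraries are too small for a test of single outlying libraries.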
